A study of Mus musculus with 10 samples.

Results

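The enzymes described here are 9 genes of the tricarboxylic acid (TCA) cycle, chosen by name: Cs, Idh2, Idh3a, Idh3b, Ogdh, Sucla2, Suclg1, Fh1 and Mdh2. All 9 were found among the 17359 genes of the deposited count table, and all 9 passed the filter on low counts that left 12789 genes. They were measured by RNA sequencing in livers of mice on a high-fat diet, which every group received. The ad libitum controls (AL, n = 3) ate freely. The other mice followed a weekly cycle that cut calories by 50% on days 1 and 4, cut them by 70% on days 2 and 3, and left food unrestricted from day 5 to day 7. Their livers were taken on day 3, the low-calorie phase (LC, n = 4), or on day 7, the refeeding phase (RF, n = 3). Strain, sex, age, the hour of collection, and whether each sample came from its own animal are not stated in the labels, so each p-value rests on the spread between samples, which may be technical.

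The TCA cycle runs in the mitochondrial matrix. It oxidises acetyl groups from sugars, fatty acids and amino acids to carbon dioxide and passes the electrons to the respiratory chain. In liver its intermediates are also starting points for glucose, fatty acid and amino acid synthesis. Its dehydrogenase steps, among them those of isocitrate and alpha-ketoglutarate, are the classic points of control by NADH and calcium.

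At day 3 of the cycle, mRNA of 6 of the 9 enzymes was lower than in ad libitum liver: Cs, Idh3b, Sucla2, Suclg1, Fh1 and Mdh2. They were lower by 0.52 to 1.05 on the log2 scale, so that Cs stood at 0.70 times and Suclg1 at 0.48 times its AL level. At day 7 each of these 6 was higher than at day 3, and none of the 9 differed detectably from AL. Idh2, Idh3a and Ogdh passed in neither step. Within the NAD-dependent isocitrate dehydrogenase, the catalytic subunit gene Idh3a and the regulatory subunit gene Idh3b therefore did not move together. Their count ratio, 1 of a set listed after the counts had been seen, differed between the groups.

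Gene calls came from edgeR's quasi-likelihood test, at a threshold of 0.05 on p adjusted by Benjamini and Hochberg's method across the 12789 genes. Levels are CPM, counts scaled to a common library total, after trimmed-mean (TMM) scaling of the libraries, given for AL replicates 2, 3 and 4, LC replicates 1 to 4 and RF replicates 1 to 3, in that order. Of all genes tested, 31.5% were called at LC against AL, 15.6% lower and 16.0% higher, against 6 of 9 lower and none higher among the TCA enzymes. The median log2 fold change of the 9 was −0.60, and that of all genes was 0.05. From LC to RF 22.1% of all genes were called, 11.4% higher and 10.7% lower, against 6 of 9 higher and none lower. The medians were 0.64 for the enzymes and −0.02 for all genes. The LC samples enter both comparisons, so the fall and the rise are not independent observations. All LC libraries lay below all AL libraries for 5 enzymes (Cs, Idh3b, Ogdh, Fh1 and Mdh2), and such separation was seen in 17.1% of all genes downward and 18.7% upward. All RF libraries lay above all LC libraries for 5 (Cs, Idh3b, Sucla2, Suclg1 and Mdh2), against 17.7% of all genes upward and 16.5% downward.

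The upstream DNA of 4 of the 6 genes that moved together is shown to give the sequence context of genes whose mRNA fell and rose: Mdh2 and Idh3b, which kept their calls when any 1 library was left out, Suclg1, which had the largest fold change, and Sucla2. Each is the 250 bases before the annotated start, from RefSeq on build GRCm38.p6, which is not the build named for the counts (GRCm39). Capitals mark matches, on either strand, to the letters searched.
Mdh2 (chr5:135778399-135778648, plus strand): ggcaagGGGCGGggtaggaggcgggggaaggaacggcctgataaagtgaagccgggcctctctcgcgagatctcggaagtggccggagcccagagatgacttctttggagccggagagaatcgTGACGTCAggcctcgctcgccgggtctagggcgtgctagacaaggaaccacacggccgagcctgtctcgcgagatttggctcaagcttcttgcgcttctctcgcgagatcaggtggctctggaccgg
Idh3b (chr2:130284452-130284701, minus strand): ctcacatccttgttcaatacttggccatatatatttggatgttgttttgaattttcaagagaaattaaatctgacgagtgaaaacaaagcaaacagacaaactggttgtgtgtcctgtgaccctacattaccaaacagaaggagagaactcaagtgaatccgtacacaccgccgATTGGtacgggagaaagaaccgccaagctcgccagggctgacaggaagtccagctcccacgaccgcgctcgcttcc
Suclg1 (chr6:73248255-73248504, plus strand): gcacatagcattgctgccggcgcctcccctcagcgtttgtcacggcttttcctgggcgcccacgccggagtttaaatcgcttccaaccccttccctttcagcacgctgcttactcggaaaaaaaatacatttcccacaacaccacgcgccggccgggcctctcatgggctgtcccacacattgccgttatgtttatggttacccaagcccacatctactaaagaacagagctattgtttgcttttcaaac
Sucla2 (chr14:73552536-73552785, plus strand): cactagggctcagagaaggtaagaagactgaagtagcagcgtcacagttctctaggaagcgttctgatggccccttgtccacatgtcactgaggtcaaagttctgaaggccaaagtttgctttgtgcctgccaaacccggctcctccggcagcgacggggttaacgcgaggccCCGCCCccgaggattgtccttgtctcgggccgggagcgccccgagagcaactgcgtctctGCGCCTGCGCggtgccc
The letters searched on both strands were AAGGTCA for ESRRA, those of CCGGAAG for GABPA, GGGCGG for SP1, CCAAT for NFY, TGACGTCA for CREB, TATAAA for the TATA box, and the consensus of NRF1. None of these motifs holds another whole. A promoter entry was found for 8 of the 9 enzymes, all but Idh3a, with 6 alternative starts for Ogdh. An enzyme was counted when any of its windows held the letters, so Ogdh had 6 windows to match and the others 1. The shares of all windows count each window by itself, so the 2 measures differ in unit. GGGCGG was found in 6 of the 8 genes (Cs, Idh2, Ogdh, Sucla2, Fh1 and Mdh2) and in 32.7% of all 32851 promoter windows of this length. CCAAT was found in 5 (Cs, Idh2, Idh3b, Ogdh and Fh1) and in 33.8% of all windows. TGACGTCA was found in Mdh2 and Ogdh and in 1.55% of all windows, and the NRF1 consensus in Sucla2 alone of the 8, from −17 to −8 of the start, and in 3.74% of all windows. The letters for ESRRA, GABPA and the TATA box, held by 4.08%, 6.91% and 12.4% of all windows, were in none of the 8. Suclg1 held none of the letters searched in this window. Genes with GGGCGG or CCAAT are found both among the 6 that moved and among Idh2 and Ogdh, which did not pass.

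Citrate synthase, encoded by Cs (NCBI gene 12974), joins acetyl-CoA to oxaloacetate and opens the cycle. Its level was 133, 155 and 164 CPM at AL, 113, 111, 96.2 and 101 CPM at LC, then 171, 192 and 132 CPM at RF. Every LC library lay below every AL and every RF library. The log2 fold change was −0.52 at LC against AL (SE 0.14, adjusted p = 0.015) and 0.64 at RF against LC (SE 0.14, adjusted p = 0.0075).

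Isocitrate is oxidised in mitochondria by 2 enzymes. The NAD-dependent one, the step usually assigned to the cycle, is built from the catalytic subunit of Idh3a and the regulatory subunits of Idh3b and Idh3g. The NADP-dependent one, encoded by Idh2, makes NADPH and can also run in reverse. Idh3b (NCBI gene 170718) was at 129, 166 and 182 CPM at AL, 87.9, 98.5, 103 and 86.2 CPM at LC, then 136, 138 and 146 CPM at RF. The LC libraries lay below all others, with a log2 fold change of −0.76 against AL (SE 0.13, adjusted p = 0.0014) and of 0.58 for RF against LC (SE 0.13, adjusted p = 0.0095).

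Idh3a (NCBI gene 67834) was at 32.3, 39.5 and 45.4 CPM at AL, 41.3, 44.8, 46.5 and 40.5 CPM at LC, then 46.4, 51.0 and 42.0 CPM at RF. The 3 groups overlapped, and no comparison passed (LC against AL 0.15, SE 0.13, adjusted p = 0.42). Idh2 (NCBI gene 269951) was at 85.4, 126 and 164 CPM at AL, 114, 122, 128 and 172 CPM at LC, then 114, 129.7 and 135 CPM at RF. The AL libraries of Idh2 alone spanned the RF libraries and all but 1 of the LC libraries, and no comparison passed (LC against AL 0.10, SE 0.20, adjusted p = 0.74).

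Ogdh (NCBI gene 18293) encodes the first component of the alpha-ketoglutarate dehydrogenase complex, which releases the next carbon dioxide and makes succinyl-CoA. It was at 168, 158 and 179 CPM at AL, 138, 157, 153 and 144 CPM at LC, then 139.7, 139 and 152 CPM at RF. The lowest AL library lay just above the highest LC and RF libraries, so AL did not overlap either group, while LC and RF overlapped each other. The differences did not pass (LC against AL −0.19, SE 0.11, adjusted p = 0.23; RF against AL −0.23, SE 0.12, adjusted p = 0.50). Ogdh was the one enzyme whose RF and AL libraries did not overlap, and that was so for 9.56% of all genes downward and 9.38% upward. The counts of Ogdh were not whole in 6 of 10 libraries, and those of the other 8 enzymes were whole in all 10.

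Succinyl-CoA ligase makes ATP or GTP directly. Its alpha subunit, encoded by Suclg1, pairs with the ADP-specific beta subunit of Sucla2 or the GDP-specific one of Suclg2. Suclg1 (NCBI gene 56451) was at 123, 236 and 277 CPM at AL, 67.1, 105, 112 and 125 CPM at LC, then 167, 201 and 196 CPM at RF. AL replicate 2 lay among the LC libraries, and the other AL libraries were the highest of all 10. Suclg1 fell by 1.05 on the log2 scale at LC (SE 0.26, adjusted p = 0.011), and rose by 0.88 from LC to RF (SE 0.26, adjusted p = 0.032). These were the largest changes among the 9 enzymes in both steps.

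Sucla2 (NCBI gene 20916) was at 67.2, 105 and 109.9 CPM at AL, 51.8, 59.95, 61.0 and 74.8 CPM at LC, then 96.7, 107 and 112 CPM at RF. AL replicate 2 again lay inside the LC range, while all RF libraries were above it. The log2 fold change was −0.60 at LC against AL (SE 0.17, adjusted p = 0.016) and 0.76 at RF against LC (SE 0.17, adjusted p = 0.0076).

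Fh1 (NCBI gene 14194), the fumarate hydratase that turns fumarate into malate, was at 264, 316 and 309.9 CPM at AL, 138, 256, 174 and 139 CPM at LC, then 230.0, 331 and 290.3 CPM at RF. LC replicate 2 came close to the AL libraries and lay above RF replicate 1, while the other LC libraries were well below both groups. The log2 fold change was −0.75 at LC against AL (SE 0.20, adjusted p = 0.014) and 0.68 at RF against LC (SE 0.20, adjusted p = 0.030).

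Mdh2 (NCBI gene 17448), the mitochondrial malate dehydrogenase that restores oxaloacetate and also serves the malate-aspartate shuttle, was at 184, 253 and 282 CPM at AL, 122, 133, 134 and 132 CPM at LC, then 215, 239 and 222 CPM at RF. The 4 LC libraries lay close together and below all others. Mdh2 had the smallest p of the 9 enzymes in both steps, with a log2 fold change of −0.88 at LC against AL (SE 0.14, adjusted p = 0.00088) and 0.79 at RF against LC (SE 0.14, adjusted p = 0.0027).

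**Figure D1:**
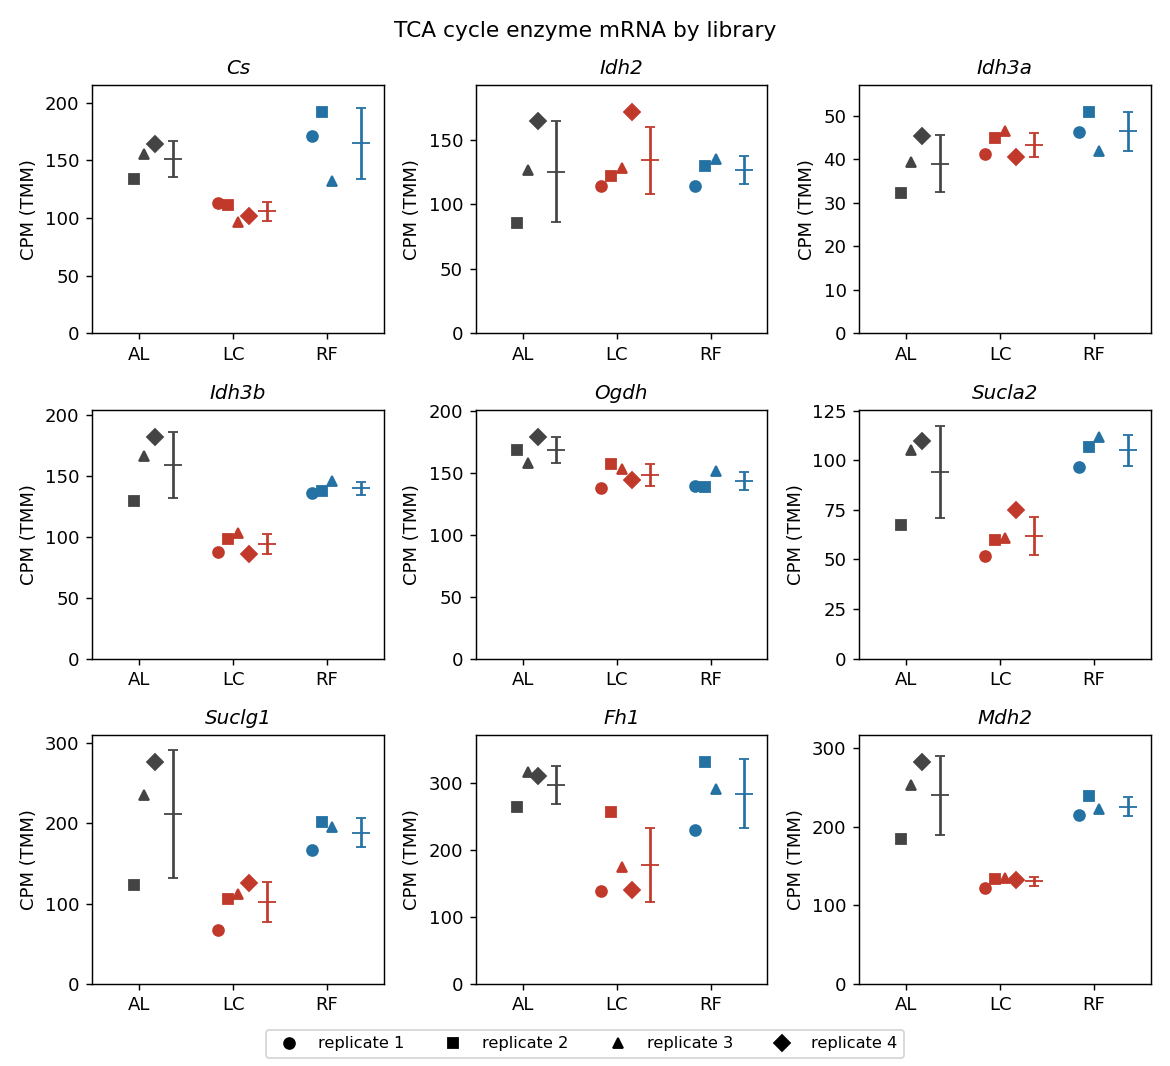
CPM with TMM scaling (vertical axis, from 0) of each of the 9 enzymes in the 10 libraries, grouped as AL (grey), LC (red) and RF (blue). Symbols give the replicate number, and the bar beside each group is its mean ± SD. For Cs, Idh3b and Mdh2 all 4 LC libraries lie below every AL and RF library, whereas the groups of Idh2 and Idh3a overlap.

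The AL libraries differed among themselves. AL replicate 2 was the lowest of the 3 for 8 of the 9 enzymes, all but Ogdh, and AL replicate 4 was the highest for 8, all but Fh1. Without AL replicate 3 or AL replicate 4 the number of enzymes called at LC against AL went from 6 to 2, Idh3b and Mdh2, although all 6 stayed lower. The adjusted p of the other 4 was then between 0.051 (Fh1, without AL replicate 4) and 0.084 (Sucla2, without either). Over all genes, 959 of 13008 were called higher and 1151 lower without AL replicate 3. When AL replicate 4 was left out these were 1196 and 1361 of 12986, against 2045 and 1989 of 12789 with every library. Without AL replicate 2 all 6 were called, and the median of the 9 enzymes moved from −0.60 to −0.80. That fit called 2186 of 13014 genes higher and 2167 lower.

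The result also depended on the scaling. With library totals alone in place of TMM, the LC against AL median over all genes shifted by 0.31 (log2), and 4395 genes were called higher and 686 lower, against 2045 and 1989. Under that scaling 3 enzymes were called lower, Idh3b (−0.44), Suclg1 (−0.73) and Mdh2 (−0.56), and Idh3a was called higher (0.47, adjusted p = 0.018). Cs (−0.20), Sucla2 (−0.28) and Fh1 (−0.44) stayed below 0 without passing, and Ogdh changed sign to 0.12. A change of scaling moves every gene by nearly the same amount. Distances from the median of all genes therefore hardly change, and they cannot tell which scaling is right. Mdh2 was 0.92 below that median with library totals and 0.93 below it with TMM, and Idh3a was 0.11 and 0.10 above it. The TMM factors were 0.83 to 0.95 in the AL libraries, 1.06 to 1.18 in LC and 0.964 to 0.969 in RF. From LC to RF, library totals alone left 3 enzymes called higher, Cs (0.44), Sucla2 (0.56) and Mdh2 (0.58), and Idh3a went from 0.10 to −0.10 without passing in either. Of all 12789 genes that scaling called 673 higher and 2724 lower, with a median of −0.22. With TMM these were 1452, 1369 and −0.02. The remaining comparison was also fitted with library totals alone. At RF against AL this scaling moved Fh1 from −0.06 to 0.05 and Mdh2 from −0.09 to 0.03, again without a call.

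**Figure D2:**
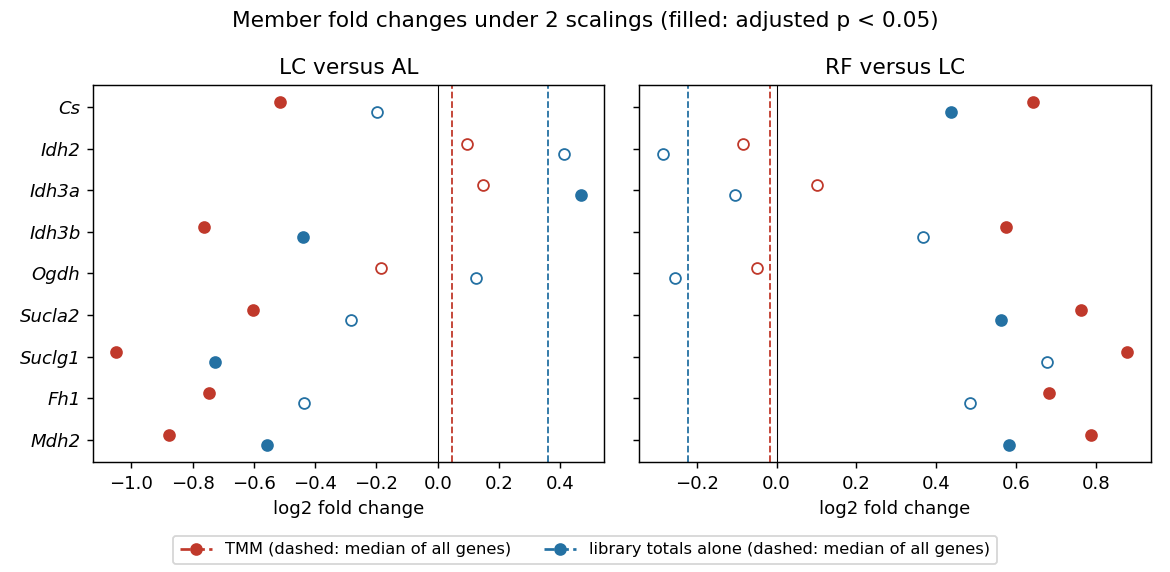
Log2 fold change (horizontal axis) of each enzyme at LC against AL and at RF against LC, with TMM (red) and with library totals alone (blue). Filled circles passed an adjusted p of 0.05, and dashed lines mark the median of all genes under each scaling. The median moves from 0.05 to 0.36 in the first comparison, and the 9 enzymes move with it.

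Refed and ad libitum liver were compared directly to ask whether the enzymes were back at the level of mice that were never restricted. By edgeR none of the 9 was called at RF against AL, and none had an unadjusted p below 0.05. The smallest unadjusted p was 0.074, for Ogdh, and DESeq2 and limma voom called none either. The background was low too, with 0.0547% of all genes called (0.0156% higher, 0.0391% lower) and 10.8% at an unadjusted p below 0.05. The fold changes ran from −0.23 for Ogdh to 0.25 for Idh3a (SE 0.14), with Mdh2 at −0.09 (SE 0.15), Fh1 at −0.06 (SE 0.22), Suclg1 at −0.17 (SE 0.28), Idh3b at −0.19 (SE 0.14), Cs at 0.13 (SE 0.15), Sucla2 at 0.16 (SE 0.18) and Idh2 at 0.01 (SE 0.21).

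Summed over the 9 enzymes, the level ranged over 1187 to 1714 CPM (AL), 873 to 1088 CPM (LC) and 1316 to 1527 CPM (RF). As a share of all counts, which does not use TMM, the sum averaged 0.133 ± 0.022% in the AL libraries (SD, n = 3), 0.111 ± 0.0081% in the 4 LC libraries and 0.138 ± 0.011% in the 3 RF libraries. On this scale AL replicate 2, at 0.113%, lay inside the LC range of 0.1002% to 0.118%.

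Levels of different genes can be compared only per transcript length, as the deposited FPKM values allow. At AL Mdh2 (209 ± 41.7 FPKM, SD, n = 3), Fh1 (193 ± 12.3) and Suclg1 (166 ± 60.8) stood highest, followed by Idh3b (113 ± 17.9), Idh2 (77.2 ± 24.3), Cs (53.6 ± 4.91), Sucla2 (48.6 ± 10.6), Ogdh (36.6 ± 4.59) and Idh3a (16.3 ± 2.69). Each of these overlapped the next in the order, except that every Ogdh value lay above every Idh3a value. At LC Idh2 (102 ± 17.2 FPKM, n = 4) moved up to the third place, and Suclg1 (99.2 ± 23.1) came next and overlapped it. At RF Suclg1 (159 ± 15.9 FPKM, n = 3) took the third place again and did not overlap Idh3b (107 ± 4.15), and Idh2 (83.8 ± 7.38) was again below Idh3b. Idh3a was the lowest of the 9 in every group, at 22.4 ± 2.21 FPKM at LC and 20.8 ± 2.05 at RF.

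A ratio of the counts of 2 genes within a library does not depend on how libraries are scaled. Such ratios were computed for 8 pairs of subunit genes of one enzyme that held at least 1 of the 9 enzymes or a partner subunit (Sucla2 and Suclg2 encode alternative beta subunits), a set listed after the counts had been seen. Each was tested across the 3 groups with an exact permutation test over all 4200 arrangements of the samples, whose smallest possible p is 0.00024, and adjusted over the 8 ratios. The adjustment does not cover the choice of pairs. Only differences between groups are read here, since a count ratio of genes of unequal length is not a ratio of molecules.

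The log2 ratio of Idh3a to Idh3b was −2.002, −2.075 and −2.005 in the AL libraries, −1.09, −1.14, −1.15 and −1.09 in the LC libraries, and −1.55, −1.43 and −1.80 in the RF libraries. The 3 groups did not overlap, with LC highest, AL lowest and RF between them. The mean was 0.91 higher at LC than at AL and 0.43 higher at RF than at AL, and the groups differed (exact permutation p = 0.00048, adjusted p = 0.0038, 3, 4 and 3 samples). The adjusted p stayed between 0.0038 and 0.029 with FPKM in place of counts and with each library left out. The ratio of Idh3a to Idh3g, the gene of the other regulatory subunit, was 0.48 higher at LC and 0.45 higher at RF than at AL, without overlap with AL in either group (exact permutation p = 0.060, adjusted p = 0.097, and 0.049 without RF replicate 3). The ratio of Idh3g to Idh3b was 0.43 higher at LC than at AL and at −0.02 from AL at RF (exact permutation p = 0.023, adjusted p = 0.062).

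Of the other ratios none passed after adjustment. Each p below is that of the test across the 3 groups, not of the difference printed beside it. That of Ogdh to Dld, the gene of the dihydrolipoamide dehydrogenase shared by several complexes, was 0.39 higher at LC than at AL without overlap (adjusted exact permutation p = 0.062). The test of this ratio passed without AL replicate 3 (adjusted exact permutation p = 0.0095) and without RF replicate 3 (adjusted p = 0.049). Without AL replicate 3 the difference between LC and AL was smaller, at 0.26. Ogdh to Dlst, the gene of the core acyltransferase of the same complex, differed by 0.05 with overlap (adjusted exact permutation p = 0.23). Among the ligase subunits, Suclg1 to Sucla2 was lower at LC than at AL by a difference of −0.42 (adjusted exact permutation p = 0.081), and Sucla2 to Suclg2 was 0.15 higher at LC and 0.59 higher at RF (adjusted exact permutation p = 0.11). Suclg1 to Suclg2 was the ratio with the largest p (adjusted exact permutation p = 0.23), with AL libraries from −1.19 to −0.16.

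**Figure D3:**
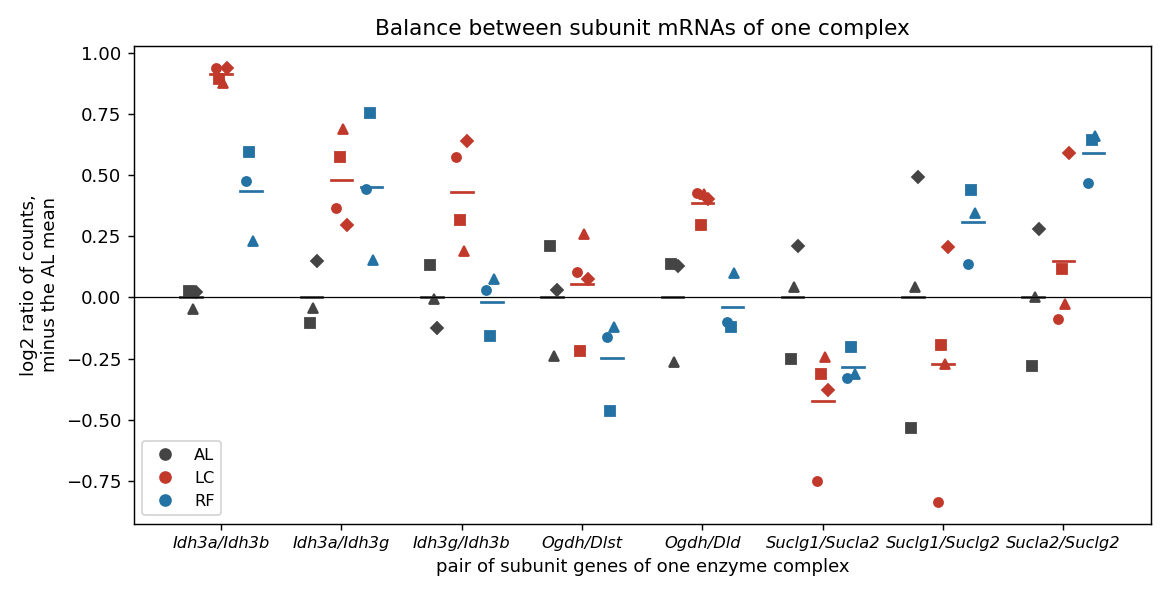
Log2 ratio of counts of 2 subunit genes of one complex, minus its mean at AL (vertical axis), for 8 pairs (horizontal axis). Points are libraries of AL (grey), LC (red) and RF (blue), with circle, square, triangle and diamond for replicates 1 to 4, and short lines are group means. For Idh3a/Idh3b the LC points lie together about the mean of 0.91, apart from both other groups.

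The other genes of the cycle, a list of 9 with Idh3g, Ogdhl, Dlst, Dld, Suclg2 and the 4 succinate dehydrogenase subunits, gave 5 that fell and none that rose at LC, of the 8 that passed the filter. Their median was −0.64. Of all genes tested 15.6% were called lower and 16.0% higher at LC, and the median was 0.05. Ogdhl, a second gene for the first component of the alpha-ketoglutarate dehydrogenase complex, was left out by the filter, at up to 0.43 CPM in any library. Succinate dehydrogenase, which also belongs to the respiratory chain, supplied 3 of the 5: Sdha (−0.86, SE 0.18, adjusted p = 0.0037), Sdhb (−0.71, SE 0.14, adjusted p = 0.0022) and Sdhc (−0.70, SE 0.12, adjusted p = 0.0011). The others were Suclg2 (−0.73, SE 0.13, adjusted p = 0.0013) and Dld (−0.57, SE 0.12, adjusted p = 0.0036). Sdhd (−0.38, adjusted p = 0.10), Idh3g (−0.32, adjusted p = 0.052) and Dlst (−0.23, adjusted p = 0.27) did not pass.

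From LC to RF, Sdha (0.82), Sdhb (0.47), Sdhc (0.35), Sdhd (0.64) and Dld (0.38) rose, with adjusted p of 0.0075 to 0.047, and Suclg2 (0.33, adjusted p = 0.083) did not pass. Among all genes 11.4% were called higher and 10.7% lower in this step. Sdha was called with any 1 library left out. Dld lost its call without LC replicate 1, 3 or 4 or any single RF replicate (adjusted p up to 0.12), Sdhb without LC replicate 1 or 3 or any single RF replicate (up to 0.090), Sdhc without any single RF replicate, LC replicate 1 or 4, or AL replicate 3 or 4 (up to 0.13), and Sdhd without RF replicate 2 or 3 (up to 0.067). At LC against AL, Sdhd was called lower without AL replicate 2 (−0.55, adjusted p = 0.019). With library totals alone, Suclg2, Sdha, Sdhb and Sdhc kept their calls at LC and Dld did not (−0.25, adjusted p = 0.090), Dlst changed sign without passing (0.08), and from LC to RF Sdha alone of the 8 was called (0.61). Of all 12789 genes that scaling called 4395 higher and 686 lower at LC, and 673 higher and 2724 lower from LC to RF.

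**Figure D4:**
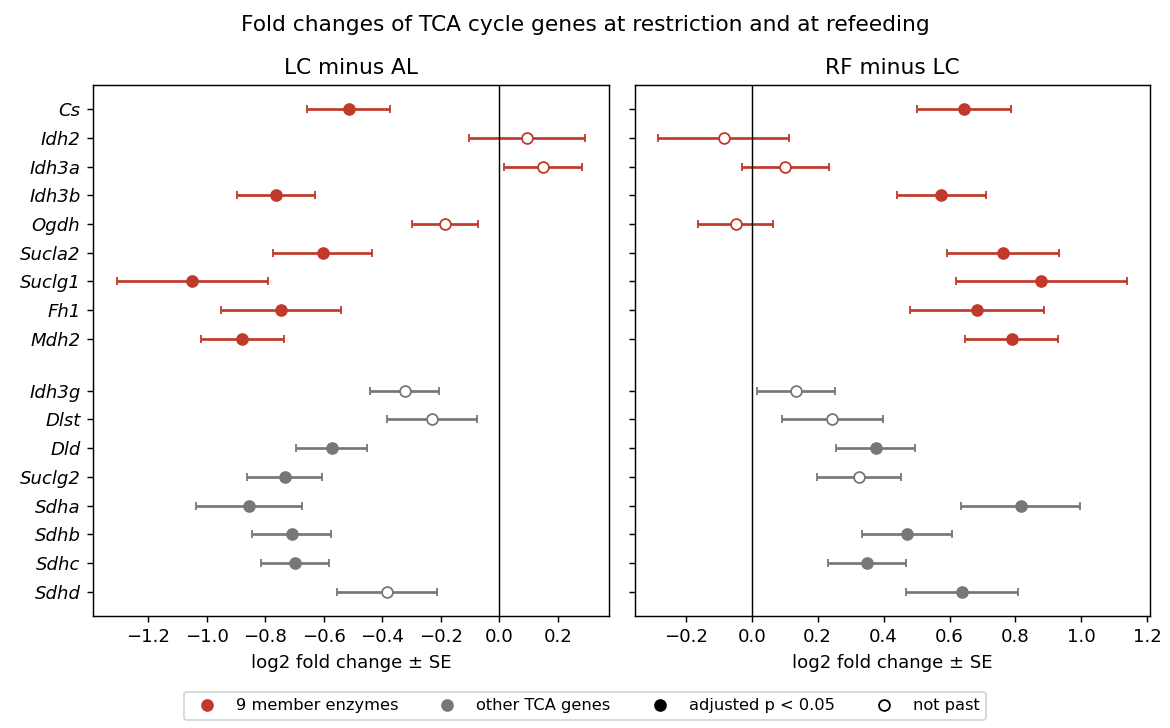
Log2 fold change ± SE (horizontal axis) of the 9 enzymes (red) and of the 8 other cycle genes that passed the filter (grey) at LC against AL and at RF against LC. Filled circles passed an adjusted p of 0.05. Idh2, Idh3a and Ogdh lie near 0 in both panels, from −0.19 to 0.15, while the other 6 enzymes lie below −0.5 on the left and above 0.5 on the right.

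Enzymes that handle the same metabolites outside the matrix, and steps that lead into or out of the cycle, were taken from further lists. Their counts with TMM, and those of the cell type markers, stand beside 15.6% of all genes called lower and 16.0% called higher at LC. For RF against LC these shares were 10.7% lower and 11.4% higher. All 3 cytosolic counterparts fell at LC and rose at RF: the malate dehydrogenase gene Mdh1 (−1.25, SE 0.18, adjusted p = 0.00051, then 1.06), the NADP-dependent isocitrate dehydrogenase gene Idh1 (−0.68, then 0.60) and Aco1 (−0.54, then 0.48). Of 4 genes of the pyruvate dehydrogenase complex, which supplies acetyl-CoA, Pdha1 (−0.59, adjusted p = 0.0089) and Dlat (−0.42, adjusted p = 0.049) fell. Of 10 genes of enzymes that feed or drain the cycle 2 fell at LC and none rose, a share near that of all genes, namely the aspartate aminotransferase gene Got2 (−0.99, adjusted p = 0.0013) and the pyruvate carboxylase gene Pcx (−0.64, adjusted p = 0.0087). Of 7 carriers of cycle intermediates and pyruvate 3 fell and none rose, among them the citrate carrier gene Slc25a1 (−0.81, adjusted p = 0.0053) and the oxoglutarate carrier gene Slc25a11 (−0.44, adjusted p = 0.027). With library totals alone Mdh1 (−0.94), Idh1 (−0.36), Got2 (−0.67) and Slc25a1 (−0.48) were still called lower at LC, and Aco1 (−0.22), Pdha1 (−0.27), Dlat (−0.10), Pcx (−0.33) and Slc25a11 (−0.12) were not. Under that scaling the medians of the pyruvate dehydrogenase genes (0.06), the feeding and draining enzymes (0.11) and the carriers (0.03) lay above 0, against −0.25, −0.22 and −0.30 with TMM. It also called genes higher at LC, which were Pdhb of the pyruvate dehydrogenase list (0.41), Pck2 (0.73) and Me2 (0.86) of the feeding and draining enzymes, and the carrier gene Slc25a12 (0.68), so that these lists then held 1 higher and 0 lower, 2 higher and 1 lower, and 1 higher and 1 lower. Over all 12789 genes that scaling called 4395 higher and 686 lower at LC.

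Of 14 measured genes for lipoate and iron-sulfur cofactors and for succinate dehydrogenase assembly, 6 fell and none rose at LC, with a median of −0.33. The scaffold gene Iscu (−0.64, adjusted p = 0.0015) and the assembly factor gene Sdhaf4 (−0.72, adjusted p = 0.0021) had the smallest p. Of 10 genes of mitochondrial import, structure and DNA upkeep 5 fell and none rose, with a median of −0.36, led by Timm23 of the inner membrane translocase (−0.60, adjusted p = 0.0017) and the outer membrane channel gene Vdac1 (−0.76, adjusted p = 0.0026). Among 7 regulators of nuclear genes for mitochondria or of mitochondrial proteins, 1 rose and 1 fell. Esrra, which encodes an orphan nuclear receptor known to act on mitochondrial genes, averaged 36.4 ± 3.51 CPM in the 3 AL libraries (SD) and 52.8 ± 4.65 CPM in the 4 LC libraries, and rose by 0.54 (SE 0.13, adjusted p = 0.0067). The lysine deacylase gene Sirt5 fell (−0.65, SE 0.17, adjusted p = 0.011). With library totals alone Sdhaf4 (−0.41) and Vdac1 (−0.43) were still called lower and Esrra higher (0.85), while Iscu (−0.32), Timm23 (−0.29) and Sirt5 (−0.33) did not pass, and the medians of the cofactor and import lists were −0.02 and −0.05. The counts under that scaling, where 4395 of all 12789 genes were called higher and 686 lower, were 3 regulators higher (Esrra, Nrf1 at 0.70 and Sirt3 at 0.37) and 0 lower, 1 cofactor gene higher (Sdhaf1, 0.75) and 2 lower, and 1 import gene lower.

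The genes whose profile over the 10 libraries was most like the mean profile of the 9 enzymes were named by the root mean square difference of centred log2 CPM, among 9192 genes outside the lists with a mean of at least 5 CPM. They were Tprgl (0.067), the amino acid transporter family gene Slc38a10 (0.067), the RNA-binding protein gene Larp1b (0.081), Coq9 of ubiquinone synthesis (0.081) and the dipeptidase gene Cndp2 (0.087). Among the 9 enzymes this difference ran from 0.14 for Idh3b to 0.33 for Idh2. The 5 genes were picked for the smallest differences among 9192 and the enzymes were not, so the 2 sets of values cannot be compared.

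Library totals lay between 13871533 and 15899479 counts, and each enzyme had between 435 and 4973 counts in each library. In bulk liver fewer cells of a type and less RNA per cell cannot be told apart. Hepatocyte genes were abundant in every library, and of 9 measured hepatocyte markers 6 fell and none rose at LC, with summed levels of 93271 to 113421 CPM (AL), 65346 to 76284 CPM (LC) and 87934 to 93668 CPM (RF). Among 10 sinusoidal endothelial markers 4 rose, with sums of 237 to 258, 364 to 385 and 312 to 371 CPM. Among 10 Kupffer cell and macrophage markers 2 fell (136 to 200.3, 116 to 201 and 155 to 210.1 CPM), and of 5 red cell markers 2 fell (473 to 716, 274 to 407 and 325 to 1029 CPM). Of 10 stellate cell and fibroblast markers 1 fell, and of 6 cholangiocyte markers 1 rose. The filter left 2 of 6 measured T and NK cell markers, 4 of 4 B cell markers and 3 of 5 neutrophil markers. With TMM none of those left was called. The sums of all measured markers of each type were at most 10.2 CPM, and Ly6g was at 0 in 9 of 10 libraries. The adipocyte markers Adipoq, Plin1 and Retn stayed below 0.56 CPM. Cfd averaged 101 CPM at AL, 8.77 CPM at LC and 2.07 CPM at RF, so it did not return at RF. Its log2 fold change was −3.53 at LC against AL (edgeR adjusted p = 0.0055) and −5.61 at RF against AL (adjusted p = 0.11, not called). With library totals alone, where 4395 of all 12789 genes were called higher and 686 lower, the counts at LC were 1 hepatocyte marker lower, 5 endothelial markers higher, 2 Kupffer cell markers higher and 2 lower, 2 stellate cell markers higher, 1 red cell marker lower, 1 neutrophil marker higher, 1 cholangiocyte marker higher and 1 adipocyte marker (Cfd) lower. The part of these shifts in the fall of the enzymes was not tested.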

How the data were processed

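Liver RNA of 10 samples was enriched for poly(A) tails, sequenced without strand on the BGI DNBSEQ platform, and had RNA integrity numbers of 6.6 to 8.5, per the labels' protocols. HISAT, Bowtie2 and the build GRCm39 are named in the submitters' processing notes. No source used here names the counting program or its annotation. The authors deposited expected counts (estimated counts, 10.9% of values not whole) and FPKM values, which are scaled by transcript length and depth.

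Expected counts were rounded, filtered with filterByExpr and scaled by TMM. edgeR 4.0.16 (glmQLFit, robust, R 4.3.3) fitted 1 mean for each group, using all 10 libraries. Each standard error was taken as the log2 fold change, without its sign, divided by the root of F. FPKM values were tested with limma 3.58.1 on log2(FPKM + 1) or log2(FPKM + 0.1), as alternatives, beside DESeq2 1.42.0, limma voom, other scalings and filters, the compared groups alone, a replicate block, and each library left out. The steps were tested on simulated counts. For LC against AL, run on 12661 genes, the test recovered 10.4% of log2 changes of 0.5, 64.2% of changes of 1, and 93.8% of changes of 2. Each size was held by only 64 to 67 of these genes, whereas the real comparison called 31.5% of genes. Adjustment is stricter when few genes change, so these shares do not give the power of the real LC against AL test. The same simulation also called 11 genes that held no change, beside 7, 43 and 60 recovered at these sizes.

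The enzymes and the gene lists were chosen with earlier results of these data known. Genes named are the 9 enzymes, the other cycle genes (1 gene is not reported here), the 2 genes with the smallest p at LC against AL of each further list, and the 5 nearest profiles. Dlat, Aco1, Cfd, Pdhb, Pck2, Me2, Slc25a12, Nrf1, Sirt3 and Sdhaf1 were named after their values were seen.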

Additional observations from a re-analysis of the deposited data

Results flagged for a closer look

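Among 17 cycle genes and 8 count ratios screened in the group of 4 LC samples, 2 genes had a lone lowest or highest sample whose gap to the next was large as a share of the group's range. LC replicate 1 was the lowest for Mdh2, at 121.7 CPM against 132 CPM in the next sample, a gap of 0.871 of a narrow range (the group's SD was 5.84 CPM). LC replicate 2 was the highest for Dlst, at 212.5 CPM against 159 CPM in the next, a gap of 0.843 of the range. Both gaps are above Dixon's 95% critical value for 4 samples, which chance passes in about 1 of 20 groups, so that about 1 of the 25 would pass by chance.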

How the results depend on the processing

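The 6 enzymes called at LC against AL and at RF against LC were the same 6 with DESeq2, size factors by relative log expression, both other filters, the compared groups alone, voom with sample weights and the replicate block. Library totals alone, log2(FPKM + 1) and log2(FPKM + 0.1) each gave 4 called enzymes at LC against AL (3 lower, and Idh3a higher) and 3 at RF against LC. Over all genes these 3 settings called 5081, 4999 and 5009 at LC against AL, where the split moved from 2045 higher and 1989 lower to 4395 and 686, 4291 and 708, and 4294 and 715. At RF against LC they called 3397, 3489 and 3377 (673, 707 and 696 of them higher). At RF against AL no setting called an enzyme, while all genes called went from 7 to 99 with DESeq2, 50 with voom, 13 with no filter, 5 with library totals or the replicate block, and 1 with either FPKM offset. Leaving out each library gave 2 to 6 enzymes and 2110 to 4353 genes at LC against AL, 0 enzymes and 1 to 13 genes at RF against AL, and 4 to 6 enzymes and 1435 to 3141 genes at RF against LC. In the last, Suclg1 or Fh1 lost its call without each of the LC and RF replicates, while Cs, Idh3b, Sucla2 and Mdh2 were called in every one of these fits. The causes were not tested. The deviations of same-numbered samples of different groups correlated at r = −0.04 to 0.22 across genes (8 pairs), against −0.19 to 0.10 for 25 pairs of different numbers. LC and RF replicates 1 (0.22) and 2 (0.16) lay above all of the latter, replicates 3 did not (0.05), and 5 of 10 libraries correlated best with their own number, so, with not every pair above 0.1, the numbers were not taken as pairs. With the replicate block 6 enzymes were called in both steps, and the calls of Dld and Sdhc at RF against LC were lost (adjusted p = 0.058 and 0.068). In simulated counts with few changed genes, 10.4% (LC against AL) and 8.96% (RF against AL) of log2 changes of 0.5 were recovered. The real LC against AL comparison called many more genes, so the first share does not carry over to it. At RF against AL, with 3 samples a group, changes of this size could be missed. The ratio analyses with their alternatives, and library totals for the further lists, were added after seeing the data.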
